A study of Danio rerio with 10 samples.

Results

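At 2 days post-fertilization (dpf), the transcriptomes of homozygous ebf3a mutant zebrafish (−/−) and wild types (WT, +/+) were compared across all genes, using the 4 libraries of these 2 genotypes and this age among the 10 libraries of the series. Each library was polyadenylated RNA from a pool of 15 to 20 embryos, taken from the anterior body with the eyes, while the posterior part of each embryo was used for genotyping. The mutants carried an out-of-frame CRISPR/Cas9 allele of ebf3a that was made in AB fish with a single guide RNA, and embryos came from crosses of the F2 generation or later. The labels do not say which pools shared a clutch, and a replicate here is a pool, not an animal. The 2 heterozygous libraries of the same age were not compared with either genotype, but they shared the filter on low counts, the scaling and the estimate of spread with the other 4. The homozygous libraries held 30.1 and 31.4 M reads counted on genes and the WT libraries 43.3 and 47.8 M (1 M is 1000000), so depth and genotype cannot be told apart without equalizing the depth.

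The ebf3a gene encodes an early B cell factor, a transcription factor that binds DNA as a dimer through a zinc-coordinating domain and a helix-loop-helix motif. Early B cell factors act in the step from neural progenitor to differentiating neuron in many vertebrates, and the family is also known from olfactory neurons and from B lymphocytes. Loss of such a factor can lower the transcripts of its direct targets, and it can change the numbers of the cells that would have formed. In RNA from pooled bodies, fewer cells of a type and less RNA per cell cannot be told apart. The files list 36351 genes by the IDs of the Lawson Lab annotation, and none of these IDs was found in the tables of gene names and RefSeq genes used here. No gene is therefore given a symbol, a position or a function, the level of ebf3a that would check the genotype labels was not analysed here, and neither were the markers of eye, lateral line, olfactory and cerebellar cells that would check the tissue.

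To ask how many genes differ between the genotypes at this age, homozygous and WT libraries were compared. Between them, 362 of 22383 genes tested differed, or 1.62%. Of these, 195 were higher in homozygous mutants (0.871% of genes tested) and 167 were lower (0.746%). A call means an adjusted p under 0.05 in the quasi-likelihood test of edgeR, with p-values adjusted over all genes tested by the Benjamini-Hochberg method. At an adjusted p under 0.01 from this edgeR test, 147 genes remained, 95 higher and 52 lower. Without adjustment, 13.9% of genes tested had a p under 0.05, and the directions were then nearly even, with 1540 genes higher and 1561 lower. The excess of higher over lower genes among the 362 was not stable in size, and it reversed without homozygous replicate 2 and without a filter on low counts. In every other fit that left out 1 library, higher genes outnumbered lower genes. Without homozygous replicate 2, 494 genes were called and 41.9% of them were higher in homozygotes, against 53.9% with all libraries. Without WT replicate 1, 69.8% of 106 called genes were higher, and without WT replicate 2, 65.7% of 102. Without a filter on low counts, 916 genes were called and 45.4% of them were higher. That fit gave the genes named below far smaller adjusted p-values in the edgeR test at like fold changes. Without heterozygous replicate 1 or 2, 550 and 570 genes were called, of 23297 and 23434 tested. In these 6 fits with 1 library left out, every one of the 362 genes kept its direction, and 88 of them were called in all 6, 63 higher and 25 lower. The kept direction is no test, because all 362 had one sign between every single homozygous and WT library.

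The changes were mostly moderate in size. The median absolute log2 fold change of called genes was 0.63, with quartiles of 0.47 and 0.86, while over all genes tested it was 0.16, with quartiles of 0.07 and 0.37. Genes that were higher and genes that were lower had like sizes, with medians of 0.63 and 0.63. An absolute log2 fold change over 0.5 was found in 132 of the 195 higher genes and 123 of the 167 lower genes, and one over 1, a 2-fold change, in 38 and 29. The smallest change that was called was 0.22 among higher genes and 0.25 among lower genes, both on the log2 scale. Large estimates alone did not make a call. Over all genes tested, 1134 had an absolute log2 fold change over 1, 932 of them at a mean under 1 CPM (counts per 1000000 reads of TMM-scaled library size), and 67 of the 1134 were called. Among the called genes, 1 had no read in either homozygous library and 23 and 26 reads in the WT libraries. With a floor of 3 reads over the homozygous group, its level was at least 11.0-fold lower in homozygotes, and this bound covers counting error only. No called gene was without reads in both WT libraries.

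Changes of different size and abundance are shown by 4 genes. They are the gene with the largest change and the most abundant gene in each direction, taken from calls at 1 CPM or more on average whose genotypes did not overlap. The gene LL0000018706 rose most. It was at 12.7 and 15.8 CPM in the homozygous libraries and at 4.10 and 3.87 CPM in the WT libraries. Both homozygous pools were well above both WT pools, although they differed more from each other than the WT pools did. The log2 fold change was 1.84 (SE 0.16, edgeR adjusted p = 1.2e-05), a 3.58-fold difference, and between single homozygous and WT libraries the log2 ratio was between 1.62 and 2.01.

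Among calls at 1 CPM or more, the gene LL0000025280 fell most. It was at 0.563 and 0.357 CPM in homozygous libraries, from 17 and 11 reads. In WT libraries it was at 4.31 and 5.40 CPM, from 188 and 258 reads. Little of its transcript was thus left in either mutant pool, and its homozygous level rests on few reads. The log2 fold change was -3.39 (SE 0.33, edgeR adjusted p = 4.4e-05), which is 10.5-fold lower in homozygotes. It was called in all 6 fits that left out 1 library.

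The most abundant gene that rose, LL0000019669, changed little and its call was fragile. Its level was 4182 and 4059 CPM in homozygous libraries and 3493 and 3359 CPM in WT libraries, without overlap, as the choice of genes required. The log2 fold change was 0.27 (SE 0.06, edgeR adjusted p = 0.041), a 1.20-fold difference. It was not called without any one of the homozygous or WT libraries, where its adjusted p from the same edgeR test ranged from 0.066 to 0.417, nor with a minimum of 10 counts in every library (adjusted p = 0.056).

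The most abundant gene that fell, LL0000013464, was at 1112 and 1133 CPM in homozygous libraries and at 2487 and 2436 CPM in WT libraries. The pools of each genotype were close to each other, and the genotypes were far apart. The log2 fold change was -1.13 (SE 0.18, edgeR adjusted p = 0.0042), or 2.19-fold lower. The heterozygous libraries, which enter the estimate of spread, were far apart for this gene, at 1163 and 2214 CPM. With these libraries in the fit, DESeq2's Wald test did not call it (adjusted p = 0.062). With only the homozygous and WT libraries in edgeR's test its adjusted p was 2.1e-09.

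**Figure D1:**
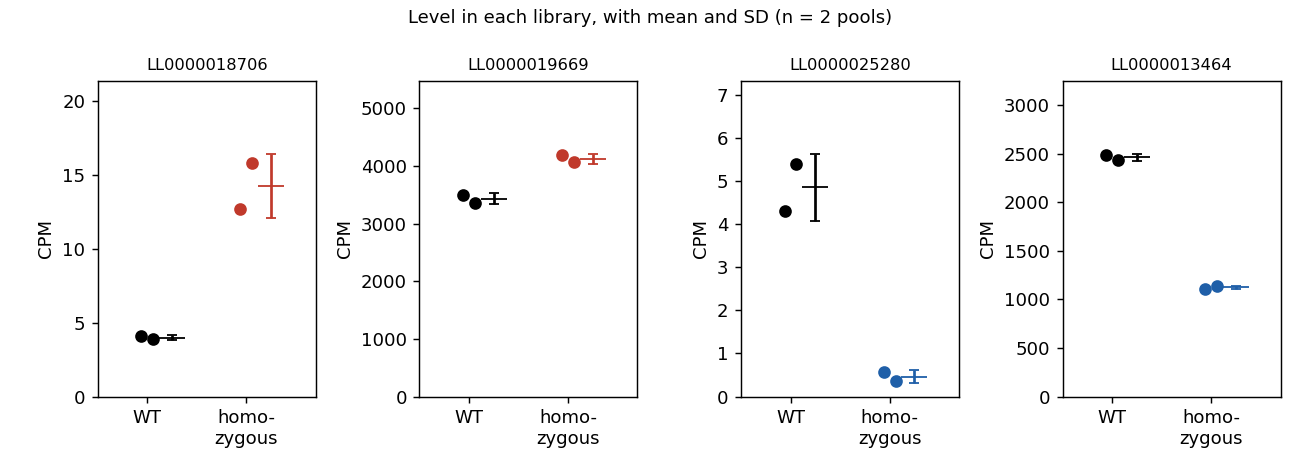
Level of 4 genes in CPM (counts per 1000000 reads, vertical axes from 0) in the 2 WT and 2 homozygous libraries; each point is a pool, and the dash and bar beside the points give the mean and SD (n = 2). The 4 genes were chosen among calls whose genotypes do not overlap. Their changes range in size from a 1.20-fold rise in LL0000019669 to a 10.5-fold fall in LL0000025280.

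Genes that rose were more abundant than genes that fell. The median level over the 4 libraries was 42.8 CPM for higher genes, with quartiles of 17.0 and 119.7, and 19.9 CPM for lower genes, with quartiles of 9.05 and 50.1. Between 1 and 10 CPM lay 25 higher and 44 lower genes, and at 100 CPM or more lay 55 higher and 20 lower genes. Together the higher genes held 3.61% and 3.62% of the TMM-scaled library size in the homozygous libraries, against 2.42% and 2.46% in WT. On the same scale, the lower genes held 0.991% and 1.01% in homozygous libraries, against 1.48% and 1.49% in WT. Much of the rise lay in a single run of neighbouring gene IDs, described below, at 14039 and 14285 CPM against 7352 and 7621 CPM in WT. Outside that run, the higher genes summed to 22037 and 21884 CPM in homozygous libraries and to 16892 and 17010 CPM in WT. These sums are over genes that were chosen by this difference and are given as a description.

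The share of genes called rose with abundance, as did the precision. Genes tested were divided by their mean log2 CPM into 5 bins of equal size, with bin 1 the lowest. In bin 1, 3 of 4477 genes were called, or 0.0670%, where the median gene had 18 reads per library and a standard error of 0.70 on the log2 scale. In bins 2, 3 and 4 the share called was 0.626%, 1.54% and 2.50%, and the median standard error was 0.31, 0.17 and 0.11. In bin 5, 150 genes were called, or 3.35%, at a median of 3096 reads per library and a standard error of 0.07. The size of the called changes went the opposite way, with a median absolute log2 fold change of 1.19 in bin 2 and 0.49 in bin 5. Small changes in genes of low abundance were therefore not detectable at this precision, and the part of depth in it was not tested.

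The direction also differed along the range of abundance. In bins 1 to 4, lower genes were at least as many as higher genes, with 3 against 0, 18 against 10, 41 against 28 and 57 against 55. In bin 5, 102 genes were higher and 48 lower. Of these 102, 28 belonged to a single run of neighbouring gene IDs, described below, and 74 did not. Since the WT libraries were the deepest, all libraries were also thinned at random to about 30.1 M reads. Then 335 genes were called, 180 higher and 155 lower, of which 321 were among the 362. Their directions were not split by bin, so these totals cannot show whether the pattern along abundance holds at equal depth.

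**Figure D2:**
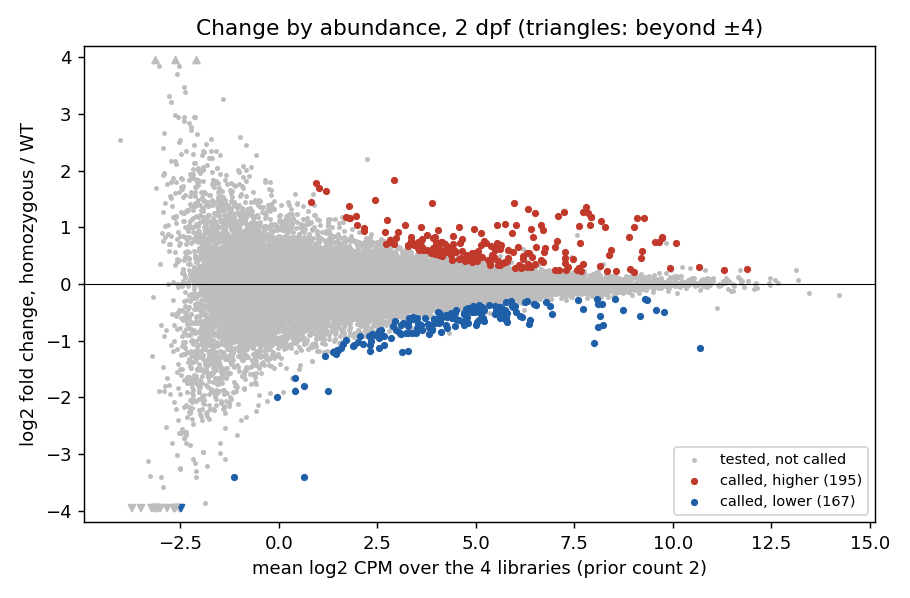
Log2 fold change of homozygous mutants over WT (vertical axis) against mean log2 CPM over the 4 libraries (horizontal axis) for all genes tested, with called genes in colour and genes beyond a log2 fold change of 4 drawn as triangles at the edge. Called genes are few at low abundance, where the cloud is wide, and at 100 CPM or more there are 55 higher and 20 lower genes.

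**Figure D3:**
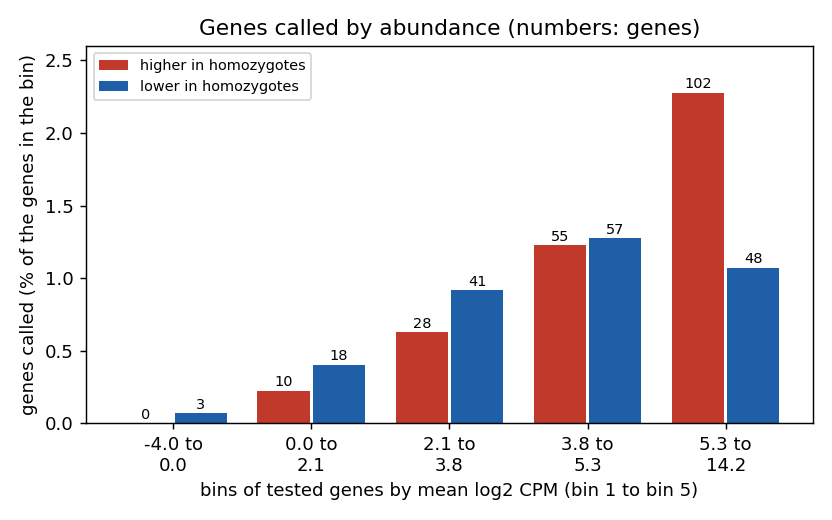
Share of genes called (percent of the genes in the bin, vertical axis) in 5 equal bins of the genes tested by mean log2 CPM (horizontal axis), for genes higher and lower in homozygotes, with the number of genes on each bar. The share called is largest in bin 5, where 102 genes are higher and 48 lower.

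Called genes lay next to each other in the ID order more often than genes tested in general lay next to a called gene. Of the 362 genes, 67 had a gene called in the same direction at the next or previous tested ID, or 18.5%. Such a neighbour was found for 48 of the higher genes (24.6%) and 19 of the lower genes (11.4%), while of all genes tested 1.60% had a neighbour called higher and 1.47% one called lower. Without WT replicate 1 or 2, 30.2% and 30.4% of the then 106 and 102 called genes had such a neighbour. Outside the longest run it was 39 of 330 called genes, or 11.8%. The order of IDs was taken from their numbers, and whether neighbouring IDs are neighbours in the genome was not analysed here. Whether neighbours are near-identical copies that share reads was not analysed here either, so single members of such groups are uncertain. Over 12937 pairs of genes tested at adjacent IDs, called or not, the changes from WT to homozygotes had one sign in 53.0%. This was little above the 51.1% for the difference between homozygous pools and the 50.4% between WT pools. These shares are descriptions and were not tested.

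A run was defined as at least 3 genes called in one direction, each at most 10 IDs from the last. There were 10 such runs, 5 of higher and 5 of lower genes, and they held 67 called genes, 45 higher and 22 lower. Without WT replicate 1 or 2, runs held 37 and 36 called genes, and without a filter on low counts 198. The longest run held 32 genes, all higher, within 50 IDs. The other 9 runs held from 3 to 5 genes each and 35 in all.

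In the longest run, the called genes together were at 14039 and 14285 CPM in homozygous libraries and at 7352 and 7621 CPM in WT libraries, 1.89-fold higher in homozygotes. The genotypes were far apart and the pools within each were alike. The log2 fold changes of its called genes ranged from 0.52 to 1.78, with a median of 1.08, and their mean levels from 2.29 to 1113 CPM. Of the 38 higher genes in the whole comparison with a log2 fold change over 1, 21 were in this run. Not every gene of the stretch was called. Of 42 genes tested within it, 10 were not called, and 6 of these had positive and 4 negative log2 fold changes, from -0.69 to 1.12. The heterozygous libraries were at 7754 and 10016 CPM, so the pools used for the spread differed from each other here. Of the 88 genes called in all 6 fits that left out 1 library, 26 were in this run. It made up 16.4% of the higher genes, and without it 163 of 330 called genes were higher, or 49.4%. The run was found in these libraries, and no test is given as support for it. With 2 libraries against 2, an exact permutation test cannot give a two-sided p under 0.33.

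**Figure D4:**
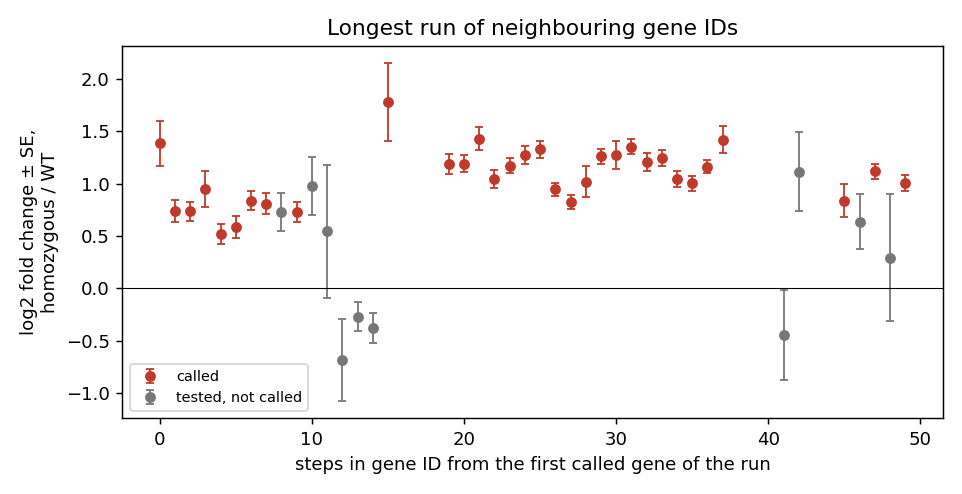
Log2 fold change of homozygous mutants over WT with its standard error (vertical axis) for the 42 genes tested in the longest run, by steps in gene ID from its first called gene (horizontal axis). The 32 called genes lie between 0.52 and 1.78, and 4 of the 10 genes not called lie below 0.

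LL0000013464, LL0000018706 and LL0000019669 each belonged to a shorter run. The run of LL0000013464 held 4 called genes, all lower, at a summed 1878 and 1916 CPM in homozygous libraries and 3621 and 3600 CPM in WT libraries, while the heterozygous libraries were at 2244 and 3359 CPM. Of 8 genes tested in its span, 6 were lower in both homozygous libraries than in both WT libraries. Over all genes tested, 22.9% were lower in this way and 22.6% were higher. In the run of LL0000018706, with 3 called genes, 5 of 9 genes tested were higher and the median log2 fold change was 0.06, so that the large rise of LL0000018706 was not shared by its neighbours as a group. The run of LL0000019669 held 3 called genes, and all 5 genes tested in its span were higher in both homozygous libraries, at a summed 11159 and 11158 CPM against 9368 and 9350 CPM in WT. In another run, of 5 called genes that were lower, all 9 genes tested in the span were lower in both homozygous libraries, at a summed 1621 and 1653 CPM against 1985 and 2000 CPM in WT. In both of these runs the heterozygous pools were about as far apart as the genotypes, at 11405 and 9596 CPM in the first and 1633 and 1918 CPM in the second. The counts include the called genes by which the runs were found and are a description.

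Next, the agreement between single libraries was examined. Each homozygous library was set against each WT library, which gives 4 pairs. All 362 called genes had one sign in all 4, while 45.5% of all genes tested did not overlap between the genotypes. The median log2 ratio of the higher genes was 0.63, 0.62, 0.64 and 0.61 over the 4 pairs, and that of the lower genes -0.65, -0.62, -0.63 and -0.63. The calls themselves depended on single libraries, and without WT replicate 1 or 2 only 105 and 102 of the 362 genes were still called. In 358 of the 362 genes the ratio was over 0.2 in size in every pair, in 208 over 0.5 and in 38 over 1. The ratio of a called gene ranged over its 4 pairs by a median of 0.16. In 356 genes, or 98.3%, even the smallest of the 4 ratios exceeded the larger of the 2 gaps within a genotype. A call rests on a difference that is large beside the spread, so a high share follows from the calling. These counts by size and gap were not made over all genes tested. The pairs reuse the libraries on which the genes were called, so these counts describe the calls and do not test them.

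The pools of one genotype gave the background for these ratios. Among all genes tested, the median absolute log2 ratio was from 0.19 to 0.21 in the 4 pairs between genotypes, 0.19 between the homozygous pools and 0.12 between the WT pools. An absolute log2 ratio over 1 at a mean of at least 1 CPM was found in 375 to 410 genes between genotypes, in 373 between the homozygous pools and in 71 between the WT pools. By this count the homozygous pools differed from each other about as much as from WT, while the WT pools were much more alike. At 10 CPM or more, a ratio over 0.5 was found in 292 to 394 genes between genotypes, 206 between the homozygous pools and 15 between the WT pools. The gap between homozygous pools was larger than that between WT pools in 63.0% of genes tested, and in 61.2% with all libraries thinned to one depth.

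The ratio of homozygous replicate 1 to WT replicate 1 shares no library with that of homozygous replicate 2 to WT replicate 2, so genes picked in one pair could be read in the other. Over all 22383 genes tested the ratios had one sign in 59.7%, and in 58.7% for the other way of pairing the libraries. The share rose with abundance, from 52.1% in bin 1 to 65.5% in bin 5, and the correlation across genes (Pearson's r) rose from 0.06 to 0.49. Genes are not independent replicates, and these values carry no test. Of 179 genes at 1 CPM or more with a log2 ratio over 1 in the first pair, 125 were also higher in the second, or 69.8%. Their median was 1.24 in the first pair and 0.49 in the second, where 42 were again over 1. Of 216 genes with a log2 ratio under -1 in the first pair, 155 were also lower in the second, or 71.8%. Their median went from -1.20 to -0.32, and 24 were again under -1. Picked in the second pair and read in the first, the medians went from 1.15 to 0.64 in 159 higher genes and from -1.24 to -0.30 in 223 lower genes. The median of the genes picked thus kept between 24.0% and 55.6% of its size in the pair that did not choose them.

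**Figure D5:**
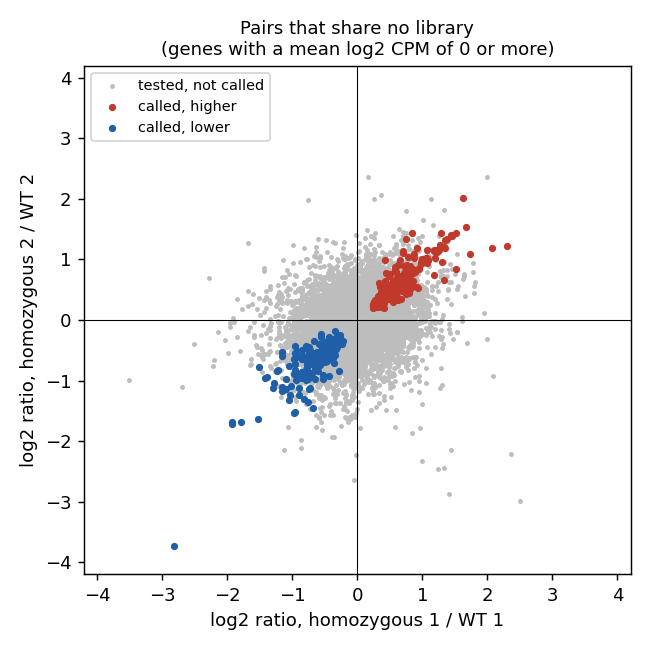
Log2 ratio of homozygous replicate 2 to WT replicate 2 (vertical axis) against that of homozygous replicate 1 to WT replicate 1 (horizontal axis), for genes tested with a mean log2 CPM of 0 or more. The called genes lie where both ratios have one sign, as they did in every single-library pair. Genes not called are found with like and with opposite signs. Any ratio beyond the axes is drawn at the edge.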

How the data were processed

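Paired-end reads were aligned with STAR by the authors to the GRCz11 genome with the Lawson Lab annotation, and the deposited values are raw counts of reads per gene ID, 1 value per ID in each file, without normalization. The submitters' processing notes name STAR 2.7.3a, while the paper's methods name another version. STAR counts only uniquely mapped reads per gene, and the strand setting is not given in the sources used here, so genes overlapping on opposite strands are uncertain. From 30.1 to 47.8 M reads were counted per 2 dpf library.

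Counts were filtered with filterByExpr, scaled by TMM and tested with edgeR 4.0.16 (R 4.3.3), using its quasi-likelihood F-test, and homozygous, heterozygous and WT libraries shared the filter, the scaling and one estimate of spread. Standard errors were derived from this test, as the absolute log2 fold change divided by the square root of the F statistic. Log2 ratios between libraries used log2 CPM with a prior count of 2. Replicate pools differed by more than sampling noise (chi-square per degree of freedom of 14.0 in homozygotes and 7.17 in WT). The p-values rest on a spread between pools that is partly shared across genes and includes the heterozygous pools. The rule for named genes gave 1 gene by size and 1 by abundance in each direction. Members and lists were chosen with earlier results of these data known. Lists of marker genes could not be used without gene names. The alternatives were DESeq2 1.42.0, its size factors, other filters, a replicate block, thinning, other fits and leaving out each library, and the script was tested on simulated data.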

Additional observations from a re-analysis of the deposited data

How the results depend on the processing

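All 362 calls kept their direction when any 1 library was left out, which their one sign in every single-library pair already implied. Of the 362, 87 were called under all 14 alternatives of test, samples, filter, scaling, depth, block and libraries left out. Without a filter on low counts, 916 of 30434 genes tested were called, 416 higher and 500 lower (45.4% higher). Of these 916 genes, 152 had an absolute log2 fold change over 1 and 198 were in runs. For LL0000013464, edgeR's adjusted p was then 6.9e-144 at a log2 fold change of -1.14, against 0.0042 at -1.13 with the filter. With only homozygous and WT libraries, edgeR called 512 of 22013 genes tested, 270 higher and 242 lower, with 102 in runs. DESeq2's Wald test with 3 genotypes called 518 of 22383, 270 higher and 248 lower, with 90 in runs. With only homozygous and WT libraries, DESeq2's Wald test called 553 of 22013, 297 higher and 256 lower, with 108 in runs. The median absolute log2 fold change of called genes was 0.58 in edgeR with only homozygous and WT libraries, 0.60 and 0.54 in DESeq2 with 3 and 2 genotypes, 0.56 without a filter, 0.61 with at least 10 counts in every library and 0.69 with a replicate block. The share of bin 5 called, a setting added after seeing the data, was 4.79% in edgeR with 2 genotypes. It was 4.15% and 5.36% in DESeq2 with 3 and 2 genotypes, 6.44% without a filter and 2.70% with the replicate block. In every setting, also with libraries left out, bin 5 was formed anew from the genes tested there, 30434 of them without a filter. The cause of these differences was not tested.

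Leaving out 1 library gave from 102 to 570 called genes, from 67 to 292 higher and from 32 to 287 lower, a share higher of 41.9% to 69.8%, from 31 to 109 genes over a log2 fold change of 1, a median of 0.57 to 0.82, from 36 to 110 genes in runs, from 15.0% to 30.4% with a called neighbour and from 1.43% to 4.86% of bin 5 called. With 1 library of a genotype left, that pool is assumed to vary like the others. With the heterozygous libraries also out, a setting added after seeing the data, 2313 and 2700 genes were called without homozygous replicate 1 or 2, where the WT pools alone set the spread, and 272 and 240 without WT replicate 1 or 2. The other way of pairing libraries that share none gave one sign in 58.7% of genes. With the replicate block 302 genes were called. Over all genes tested, the replicate deviations of homozygous and WT pools had a correlation of -0.02. It includes genes of few reads and cannot tell whether pools of one number shared a clutch. The precision of these libraries limits small changes in genes of few reads.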

Other observations

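Genes with reads in one genotype alone were also counted over all 36351 gene IDs, before any filter. With no read in either homozygous library and at least 10 reads in each WT library there were 10 genes, and with the genotypes exchanged there were 0. The WT libraries were the deepest, and with all libraries thinned to one depth 1 gene met the first condition and 0 met the second.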
